A study of Mus musculus with 4 samples.

Results

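The mural genes of the heart were examined in RNA from isolated mouse cardiomyocytes. Mural cells are the pericytes and vascular smooth muscle cells that wrap small and larger vessels. The set held 10 genes, taken by gene symbol from the 22322 rows that each library lists, with 1 row for each of the 10. Of these, 7 mark pericytes or mural cells in general (Rgs5, Abcc9, Pdgfrb, Cspg4, Notch3, Mcam and Vtn), and 3 belong to the contractile apparatus of smooth muscle (Tagln, Myh11 and Cnn1). The study compared sham-operated mice with mice after transverse aortic constriction (TAC), which narrows the aorta and loads the left ventricle, to find genes that change in heart failure. There were 2 sham libraries and 2 TAC libraries, labelled Sham1, Sham2, TAC1 and TAC2 and written here as sham 1, sham 2, TAC 1 and TAC 2. Per the methods of the study, male mice were operated on at an age of 2 months and examined by echocardiography 14 weeks later. The methods also call the mice 14 weeks old when the hearts were taken, so that the age at cell isolation is not settled. They were anaesthetized with ketamine and xylazine for TAC, and no strain or allele is named in the sources used here. Both groups went through the same Langendorff perfusion, which feeds digesting enzymes into the coronary arteries to free single cells. The cells of 1 heart were divided into 4 tubes, so that each library stands for a part of the cells of 1 mouse.

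Pericytes share a basement membrane with the endothelium of capillaries, while smooth muscle cells form the contractile coat of arterioles and arteries. Endothelial cells recruit mural cells by releasing PDGF-B, which binds the receptor encoded by Pdgfrb, and keep them mature by presenting Notch ligands to NOTCH3. In the heart, mural cells set vessel tone and hence blood flow to the muscle. These genes are not used to define cardiomyocytes, although the product of Abcc9 is also a part of the ATP-sensitive potassium (KATP) channel of heart muscle.

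Library totals were 24237777 to 32118323 counts, with 14495 to 14949 genes detected per library. The label was checked against markers of cardiomyocytes and of other cells that a heart digest can hold. The 10 cardiomyocyte genes summed to 73600 (sham 1), 82100 (sham 2), 78100 (TAC 1) and 75900 CPM (TAC 2) (CPM, counts scaled to 1 common library size after TMM normalization). The other cell types were present at lower levels, and none of their listed genes was at 0 in every library. The 12 endothelial genes summed to 646 to 765 CPM in sham and 358 to 501 CPM in TAC, the 10 fibroblast genes to 185 to 257 and 107 to 146 CPM, and the 10 macrophage genes to 48.3 to 96.5 and 27.1 to 47.0 CPM. TAC 1 stood apart from the other libraries. It had the lowest sum in each of these 3 lists, and the 13 mitochondrial protein-coding genes took 47.42% of its counts (95% Wilson interval 47.40% to 47.43%, counting error only), against 39.84% to 40.85% in the other libraries. In bulk RNA, fewer mural cells in a library and less RNA per mural cell cannot be told apart.

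Most genes of the set stood lower in TAC than in sham, with a wide gap between the TAC libraries. Pdgfrb and Abcc9, 2 of the 10 genes, were called lower by the edgeR quasi-likelihood test (Benjamini-Hochberg adjusted p under 0.05 over 12499 genes), and 0 were called higher. Over all genes tested 2.43% were called lower. In 8 of 10 genes both TAC libraries lay below both sham libraries, which held for 30.3% of all tested genes. The same 8 had an unadjusted p under 0.05 in the lower direction, against 14% of all tested genes. Genes of other non-muscle cells went the same way. Both TAC libraries lay below both sham libraries in 10 of 12 endothelial, 10 of 10 fibroblast and 7 of 10 macrophage genes. In the same order, 10 of 12, 8 of 10 and 5 of 10 had an unadjusted edgeR p under 0.05 in the lower direction. The median log2 fold change was −0.77 over the 10 genes, −0.70 over the 7 pericyte genes and −1.23 over the 3 smooth muscle genes, beside −0.01 over all tested genes. With library scaling by total counts, which the study names, the same genes were called, while the background rose to 3.38% and the median of all tested genes moved to −0.20.

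The levels were ordered on the deposited FPKM (fragments scaled by transcript length and library size), the unit that accounts for gene length. Abcc9 (56.8 ± 0.488 FPKM in sham, mean ± SD, n = 2 in each group here and below) and Rgs5 (55.9 ± 4.66) came first and did not differ beyond their spread. Mcam followed at 7.19 ± 1.63 FPKM, clear of Pdgfrb at 5.09 ± 1.05. From Pdgfrb through Vtn (4.52 ± 0.382) and Tagln (3.92 ± 1.03) to Myh11 (3.46 ± 1.17), each gene overlapped the next in range. Notch3 at 2.22 ± 0.396, Cspg4 at 1.5 ± 0.205 and Cnn1 at 0.3 ± 0.0424 FPKM were each clear of the gene above. In TAC the order was the same save that Cspg4 and Notch3, which overlapped there, changed places, and the ranges of 6 of 9 neighbouring pairs overlapped, against 4 of 9 in sham.

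**Figure D1:**
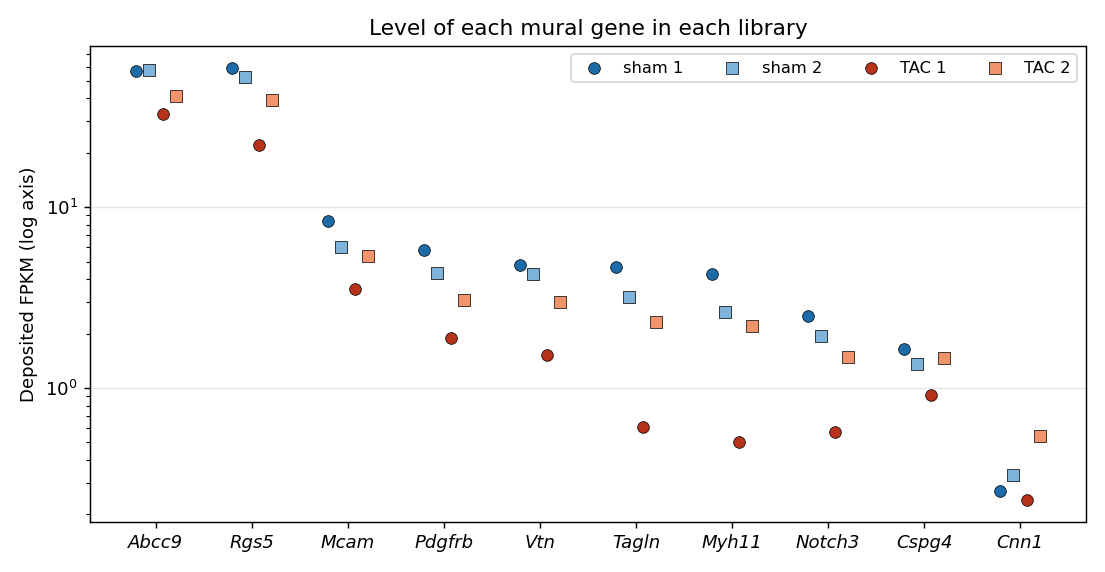
Deposited FPKM (log axis) of the 10 mural genes in each of the 4 libraries, ordered by the sham mean, with 1 point per library. TAC 1 is the lowest point of every gene, at 0.5 FPKM for Myh11 and 0.24 FPKM for Cnn1, and the TAC 2 points of Cspg4 and Cnn1 reach into or above the sham range.

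Rgs5 encodes a regulator that shortens G protein signals and is among the most specific pericyte genes. The gene (ENSMUSG00000026678) lies on chr1:169655501-169695813 (GRCm38, plus strand; this build and the GENCODE vM21 annotation hold for all gene positions here). Rgs5 stood at 221 (sham 1), 207 (sham 2), 104 (TAC 1) and 159 CPM (TAC 2). Both TAC libraries were below both sham libraries, and the TAC libraries differed from each other more than the sham libraries did. The log2 fold change was −0.70 ± 0.17 (SE), at an edgeR adjusted p of 0.0618, so that Rgs5 was not called. It was called without sham 1 (adjusted p = 0.0212), without sham 2 (0.0243) and without TAC 2 (0.000873), and not without TAC 1 (0.0694), where its log2 fold change was −0.43. The adjusted p ran from 0.000873 to 0.147 over the 14 settings tried.

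Promoter windows of 7 of the 10 genes were taken from RefSeq (GRCm38.p6, 250 bases before to 50 after the annotated start), and those of Tagln, Myh11 and Pdgfrb were not searched. They were searched for the CArG box, the site of serum response factor that is known from smooth muscle genes, and for the core TGGGAA of RBPJ, the DNA-binding partner of Notch. The CArG box was found in 0 of 7 windows, of which 1, that of Cnn1, belongs to a smooth muscle contractile gene, and in 1.63% of all 32851 windows, and the RBPJ core on either strand in 2 of 7 and in 25.6% of all. Both motifs were searched on both strands. Shown are the windows of Rgs5, whose values lay closest to the median of the set, and of Abcc9 and Vtn, which hold RBPJ matches, marked in capitals. The windows lie at chr1:169655251-169655550 (plus strand), chr6:142702225-142702524 (minus strand) and chr11:78498870-78499169 (plus strand), and each is written 5′ to 3′ along its gene.
Rgs5: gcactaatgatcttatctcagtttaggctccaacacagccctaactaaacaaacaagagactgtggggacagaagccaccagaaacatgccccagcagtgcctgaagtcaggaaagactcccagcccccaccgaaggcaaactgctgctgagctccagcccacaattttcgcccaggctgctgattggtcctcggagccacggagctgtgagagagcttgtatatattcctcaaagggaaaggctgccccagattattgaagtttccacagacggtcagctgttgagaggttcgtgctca
Abcc9: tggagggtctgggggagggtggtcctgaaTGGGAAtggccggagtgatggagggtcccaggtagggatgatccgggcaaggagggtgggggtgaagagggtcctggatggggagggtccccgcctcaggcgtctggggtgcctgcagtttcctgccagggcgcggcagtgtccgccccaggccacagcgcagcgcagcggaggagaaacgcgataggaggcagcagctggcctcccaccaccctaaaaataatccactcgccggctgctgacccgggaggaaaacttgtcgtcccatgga
Vtn: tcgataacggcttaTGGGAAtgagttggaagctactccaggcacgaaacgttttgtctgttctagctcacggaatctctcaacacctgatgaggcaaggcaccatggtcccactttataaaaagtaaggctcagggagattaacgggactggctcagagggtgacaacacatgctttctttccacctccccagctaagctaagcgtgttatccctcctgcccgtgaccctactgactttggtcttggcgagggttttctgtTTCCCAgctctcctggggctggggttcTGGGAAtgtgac
In Abcc9 the match starts 221 bases before the start. Vtn holds 1 match that starts 236 bases before the start and 2 within the transcribed bases, at positions 12 to 17 on the opposite strand and 39 to 44 on its own. These are matches of letters and not measured binding.

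Abcc9 (ENSMUSG00000030249, chr6:142587862-142702315, minus strand) encodes SUR2, the regulatory subunit of KATP channels, which pairs with Kir6.1 (Kcnj8) in mural cells and with Kir6.2 (Kcnj11) in heart muscle. Its level was 380 (sham 1), 406 (sham 2), 279 (TAC 1) and 303 CPM (TAC 2). The TAC libraries were close together here, 1.08-fold apart, and clear of the sham libraries. Abcc9 fell by 26.0% (−0.43 ± 0.08 on the log2 scale, edgeR adjusted p = 0.031). The call was lost without TAC 1 (−0.38, adjusted p = 0.103) and without sham 2 (−0.38, 0.0621), and the adjusted p ran from 0.000259 to 0.103 over 14 settings. The channel pores were set beside it. Kcnj8 stood at 10.1 and 9.73 CPM in sham and at 4.48 and 7.97 CPM in TAC 1 and TAC 2 (log2 fold change −0.68 ± 0.25, edgeR adjusted p = 0.134, not called), and was at −0.31 on the log2 scale without TAC 1 and −1.14 without TAC 2. Kcnj11 stood at 142 CPM in both sham libraries and at 130 and 140 CPM in TAC (−0.08 ± 0.07, edgeR adjusted p = 0.516). Per length, Kcnj11 at 49.3 FPKM in sham was near Abcc9 at 56.8 FPKM, whereas Kcnj8 was at 4.17 FPKM. The list of KATP channel and RGS genes held 7 genes, all with a negative log2 fold change (median −0.54), of which 0 were called by edgeR or DESeq2. Of the 7, 2 had an unadjusted p under 0.05 in the lower direction, against the 14% of all tested genes. The median was −0.16 without TAC 1 and −1.10 without TAC 2. Abcc8, which encodes the related subunit SUR1, was at −0.02 on the log2 scale (edgeR adjusted p = 0.912). An antisense gene overlaps exons of Abcc9, and because no source used here says whether counting used strand, reads of such partners cannot be told apart, which also holds for Notch3, Mcam and Tagln.

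Pdgfrb (ENSMUSG00000024620, chr18:61045150-61085061, plus strand) encodes the receptor through which PDGF-B recruits mural cells. It stood at 28.8 (sham 1), 22.6 (sham 2), 11.8 (TAC 1) and 16.5 CPM (TAC 2). The groups did not overlap, and within each group the libraries were 1.40-fold apart or less. Pdgfrb fell by 45.1% (−0.86 ± 0.18 on the log2 scale, edgeR adjusted p = 0.0427). Without TAC 1 it was no longer called (−0.64, adjusted p = 0.0942), and its adjusted p ran from 0.00064 to 0.0942 over 14 settings. Its ligand gene Pdgfb was at 15.3 and 13.4 CPM in sham and 9.68 and 12.8 CPM in TAC (log2 fold change −0.35 ± 0.16, edgeR adjusted p = 0.198). The log2 fold change of Pdgfb ran from −0.57 to −0.16 with 1 library left out. Pdgfd, a second ligand, was at −0.01 (edgeR adjusted p = 0.959). Pdgfra, the related receptor of fibroblasts, was at −0.66 ± 0.19 on the log2 scale (edgeR adjusted p = 0.0814).

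Notch3 (ENSMUSG00000038146, chr17:32120820-32166852, minus strand) encodes the Notch receptor of arterial smooth muscle and pericytes. It stood at 18.3 (sham 1), 13.6 (sham 2), 5.31 (TAC 1) and 11 CPM (TAC 2). TAC 2 lay close under sham 2, and TAC 1 was 2.08-fold below TAC 2. The log2 fold change of −0.97 ± 0.31 was not called (edgeR adjusted p = 0.0997). It was −1.58 without TAC 2 (adjusted p = 0.00347), −1.16 without sham 2 (0.0299) and −0.53 without TAC 1 (0.224). Among the related receptors, Notch2 was the one called lower, with 12.1 and 11 CPM in sham against 7.24 and 7.16 CPM in TAC (log2 fold change −0.68 ± 0.13, edgeR adjusted p = 0.0358). Notch1 was at −0.46 and Notch4 at −0.17 (edgeR adjusted p = 0.106 and 0.509), the latter at 0.02 without TAC 1. The list of PDGF and Notch signalling genes held 19 genes beside Pdgfrb and Notch3. All 19 had a negative log2 fold change, with a median of −0.53. Of the 19, 1 (Notch2) was called, against 2.43% called lower over all tested genes. An unadjusted edgeR p under 0.05 in the lower direction was found for 11 of 19, against 14% of all tested genes. The list had 0 called genes without sham 1 or without TAC 1 (median −0.32), 3 without sham 2 and 9 without TAC 2 (median −0.67). Notch2 was called in 10 of 14 settings (adjusted p 0.00585 to 0.156). The list held the Notch ligand gene Jag1 (7.74 and 5.60 CPM in sham, 2.04 and 4.91 CPM in TAC, edgeR adjusted p = 0.15) and the Notch target gene Hey1 (4.39 and 3.51 CPM in sham, 1.79 and 2.49 CPM in TAC, 0.0865), neither of which was called.

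Cspg4 (ENSMUSG00000032911, chr9:56865033-56899870, plus strand) encodes NG2, a membrane proteoglycan used to stain pericytes. It stood at 12.1 (sham 1), 10.6 (sham 2), 8.64 (TAC 1) and 11.8 CPM (TAC 2). TAC 2 lay between the sham libraries, so the groups overlapped. Its log2 fold change in all libraries was −0.15 ± 0.17 (edgeR adjusted p = 0.602), and it was 0.06 without TAC 1 and −0.39 without TAC 2, not called in any of 14 settings.

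Mcam (ENSMUSG00000032135, chr9:44134469-44142727, plus strand) encodes CD146, an adhesion molecule that mural cells share with endothelium. It stood at 22.4 (sham 1), 16.6 (sham 2), 11.9 (TAC 1) and 15.6 CPM (TAC 2). The gap between sham 2 and TAC 2 was small beside that between the sham libraries. For Mcam the log2 fold change of −0.51 ± 0.18 was not called (edgeR adjusted p = 0.131). It was −0.27 without sham 1 (adjusted p = 0.476), −0.70 without sham 2 (0.0311) and −0.71 without TAC 2 (0.0492).

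Vtn (ENSMUSG00000017344, chr11:78499091-78502324, plus strand) encodes vitronectin, a secreted adhesion protein. It stood at 7.62 (sham 1), 7.12 (sham 2), 3.05 (TAC 1) and 5.19 CPM (TAC 2). The sham libraries were close together and both TAC libraries were lower, on 85 to 241 counts per library. The log2 fold change of −0.85 ± 0.25 was not called (edgeR adjusted p = 0.0865), and it was −0.51 without TAC 1 (0.239) and −1.27 without TAC 2 (0.00893). Of 7 genes for integrin receptors and binding partners of vitronectin, 0 were called by edgeR or DESeq2 with all 4 libraries. None had an unadjusted edgeR p under 0.05 there. Their median log2 fold change was 0.03, and it turned to −0.16 with total-count scaling. It was 0.15 without TAC 1 and −0.41 without TAC 2. The integrin subunit gene Itgav, for example, stood at 18.4 and 19.9 CPM in sham and 18.8 and 20.2 CPM in TAC. In deposited FPKM it was 3.38 and 3.69 in sham and 2.71 and 3.03 in TAC, so that its groups overlapped in CPM but not in FPKM.

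Tagln and Myh11 had the widest gaps between the TAC libraries of all 10 genes. Tagln (ENSMUSG00000032085, chr9:45929619-45936058, minus strand), which encodes the actin-binding protein SM22-alpha, stood at 6.76 (sham 1), 4.90 (sham 2), 1.11 (TAC 1) and 3.68 CPM (TAC 2), the value of TAC 1 resting on 31 counts. Its log2 fold change was −1.30 ± 0.46 (edgeR adjusted p = 0.123), −2.39 without TAC 2 (0.00332), −0.67 without TAC 1 (0.248) and −1.05 without sham 1 (0.209). DESeq2 called it (adjusted p = 0.0436). Its exons overlap the protein-coding gene Pcsk7 on the opposite strand, which held 335 to 470 counts per library, more than Tagln itself. Myh11 (ENSMUSG00000018830, chr16:14194535-14291372, minus strand), the smooth muscle myosin heavy chain, stood at 25.3 (sham 1), 16.1 (sham 2), 3.69 (TAC 1) and 14.1 CPM (TAC 2). TAC 1 was 3.82-fold below TAC 2, which was near sham 2. The log2 fold change of −1.23 ± 0.50 was not called (edgeR adjusted p = 0.162), and it was −2.48 without TAC 2 (0.00159), −0.87 without sham 1 (0.25) and −0.55 without TAC 1 (0.281). Cnn1 (ENSMUSG00000001349, chr9:22099216-22109630, plus strand), which encodes calponin-1, a brake on actomyosin, was near the limit of detection at 9 to 16 counts per library. It stood at 0.506 (sham 1), 0.521 (sham 2), 0.323 (TAC 1) and 0.654 CPM (TAC 2), with both sham libraries inside the TAC range. In the fit Cnn1 was at −0.09 ± 0.52 on the log2 scale (edgeR adjusted p = 0.931), while the log2 ratio of the deposited FPKM was 0.38, and the count fit gave 0.35 without TAC 1 and −0.66 without TAC 2, so its direction depended on the unit and on TAC 1.

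The 14 close relatives of these genes were examined because similar genes can share reads. Of 13 that could be tested, 1 was called lower (Notch2) and 1 higher, beside 304 lower and 322 higher of all 12499 tested genes. The gene called higher, Myh10, a non-muscle myosin heavy chain, rose, with 25.3 and 25.2 CPM in sham against 34.6 and 33.0 CPM in TAC (log2 fold change 0.42 ± 0.09, edgeR adjusted p = 0.0402, log2 ratio of the FPKM means 0.23). The call held in 6 of 14 settings, with an adjusted p of 0.0108 to 0.495. The non-muscle myosin Myh9 was at −0.45 (edgeR adjusted p = 0.0996). The calponin Cnn2, at 19.7 to 21.9 CPM in all 4 libraries, and Tagln2, at 8.86 to 13.8 CPM, were more abundant than Cnn1 and Tagln in each library, per length as well as in CPM. Neither was called (edgeR adjusted p = 0.657 and 0.282).

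The pattern across libraries was then compared. All 10 genes were lower in TAC 1 than in TAC 2, which held for 50.1% of all tested genes. The median log2 ratio of TAC 1 to TAC 2 was −0.49 for the pericyte genes and −1.73 for the smooth muscle genes, against 0.00 for all tested genes. It was −1.93 for Myh11 and −1.73 for Tagln, and 0.6% and 0.9% of tested genes had a lower ratio. Abcc9 had the smallest gap, at −0.12. Each fit below leaves out 1 library, so that the spread behind its calls comes from the other group alone. With TAC 2 left out, 8 of 10 genes were called lower, all but Cspg4 and Cnn1, at a background of 6.01%. With TAC 1 left out, 0 of 10 were called, at a background of 0.916%. There 7 had an unadjusted p under 0.05 in the lower direction, against 8.57% of all tested genes, and 8 of 10 log2 fold changes were still negative, with a median of −0.47. Without sham 1, 3 genes were called (Pdgfrb, Rgs5 and Abcc9) at a background of 2.37%. Without sham 2, 4 were called (Pdgfrb, Rgs5, Mcam and Notch3) at a background of 3.54%.

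**Figure D2:**
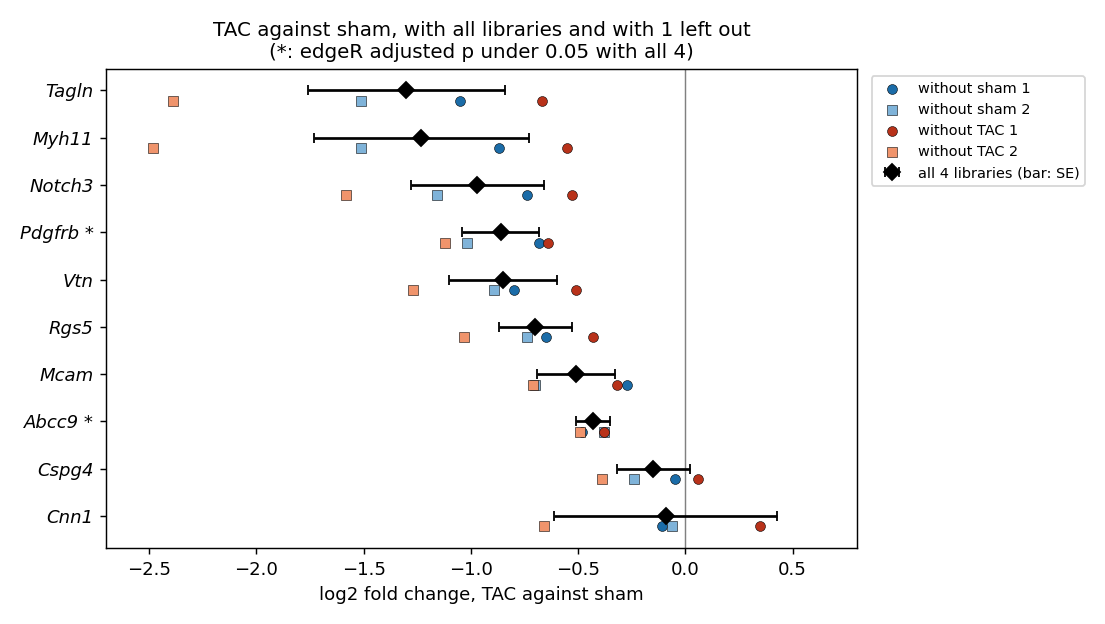
Log2 fold change of TAC against sham (x axis) for each mural gene (y axis). Diamonds with bars are the edgeR estimate ± SE from all 4 libraries, and coloured points the estimate with 1 library left out. The points without TAC 2 and without TAC 1 span −2.48 to −0.55 for Myh11 but −0.49 to −0.38 for Abcc9.

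The mural genes were set beside genes of other non-muscle cells, since TAC 1 also had the lowest levels of those. Over all 12499 tested genes, 304 (2.43%) were called lower and 322 higher. An unadjusted edgeR p under 0.05 was found for 3438 genes, 1754 of them in the lower direction. All 12 endothelial genes had a negative log2 fold change (median −0.67), and 4 of 12 were called. The called genes were Fabp4 (−0.95), Cdh5 (−0.85), Ly6c1 (−0.55) and Egfl7 (−0.54). All 10 fibroblast genes were negative too (median −0.83), with Dpt (−1.23), Lum (−0.85) and Dcn (−0.82) called, as were all 10 macrophage genes (median −0.89, 0 called by edgeR, 5 at an unadjusted p under 0.05, 1 called by DESeq2). Without TAC 1 the endothelial, fibroblast and macrophage medians were −0.43, −0.61 and −0.58, and without TAC 2 they were −1.01, −1.06 and −1.29. The sham libraries moved these lists too. Without sham 1 the medians were −0.48, −0.56 and −0.35, so that the macrophage median moved more than without TAC 1. Without sham 2 they were −0.82, −1.02 and −1.24. Of 6 Schwann cell and nerve genes 2 could be tested, and the 6 summed to 2.25 to 3.63 CPM. The cardiomyocyte genes had a median of 0.04 (−0.15 with total-count scaling), with 0 of 10 called by edgeR. Its members went both ways: at an unadjusted p under 0.05, 3 were higher (Actc1 0.35, Myl2 0.41 and Myl3 0.36 on the log2 scale) and 1 lower (Ryr2 −0.38), and DESeq2 called 3 higher and 1 lower. Myh6 stood at 24700 and 29400 CPM in sham and at 24500 and 23200 CPM in TAC (log2 fold change −0.18, edgeR adjusted p = 0.419). The part of these other cell types in the lower mural levels was not tested.

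The ratio of mural to endothelial genes was similar between groups for the pericyte genes other than Abcc9. Abcc9, whose product is also part of a channel of heart muscle, was left out. With it the pericyte sum was 690 (sham 1), 684 (sham 2), 424 (TAC 1) and 522 CPM (TAC 2). The endothelial sum was 765, 646, 358 and 501 CPM in that order. The summed CPM of the 6 pericyte genes other than Abcc9, divided by that of the 12 endothelial genes, was 0.406 (sham 1), 0.430 (sham 2), 0.405 (TAC 1) and 0.439 (TAC 2). The groups overlapped, although the numerator was 310 CPM in sham 1 and 145 CPM in TAC 1. Rgs5 made up most of that sum, and without it the ratio was 0.117, 0.109, 0.114 and 0.120 in the same order. For the 3 smooth muscle genes the ratio was 0.0425 (sham 1), 0.0334 (sham 2), 0.0143 (TAC 1) and 0.0368 (TAC 2). TAC 1 stood below the other libraries here, and TAC 2 lay between the sham libraries. The share of the smooth muscle genes in the summed FPKM of the set was 6.23%, 4.6%, 2.09% and 5.06% in that order. These ratios are descriptions of the libraries, with no test.

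**Figure D3:**
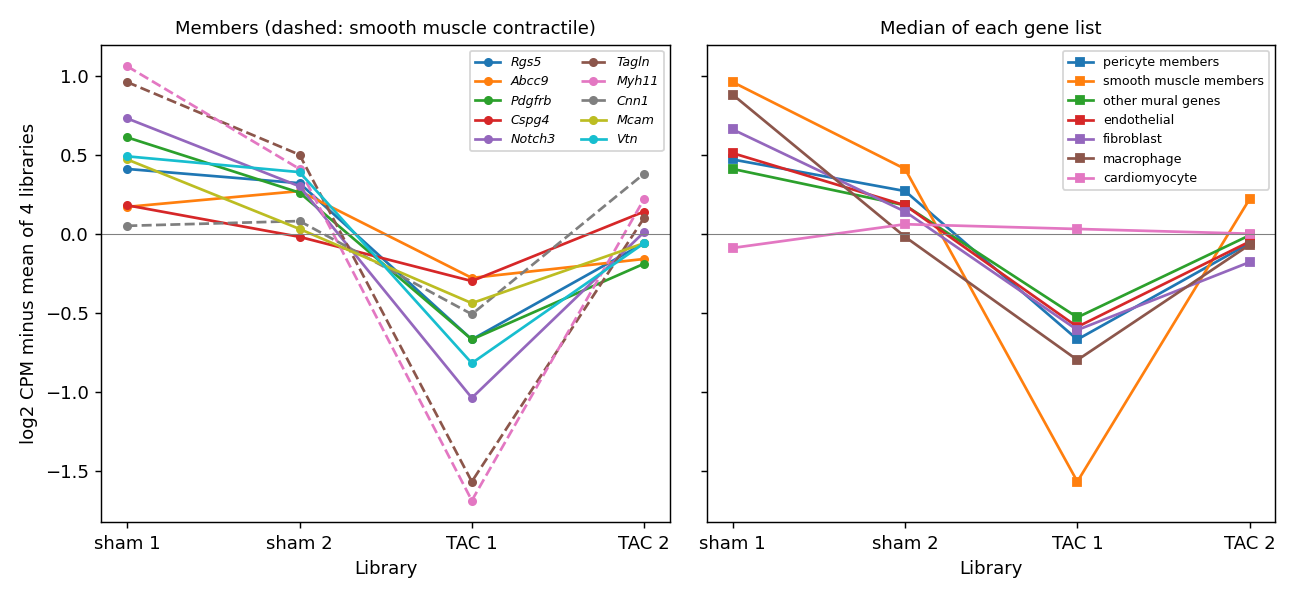
Log2 CPM relative to the mean of the 4 libraries (y axis) in each library (x axis), for each mural gene on the left and as the median of each gene list on the right. Lines join the values of 1 gene or list and carry no order. The smooth muscle genes Tagln and Myh11 are at −1.57 and −1.69 in TAC 1, and the endothelial median in TAC 1 is −0.59 against 0.03 for cardiomyocyte genes.

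A list of 30 other genes used as mural markers held 28 that could be tested, of which 22 had a negative log2 fold change, with a median of −0.57. Of the 28, 0 were called by edgeR, and DESeq2 called 3 lower and 1 higher. At an unadjusted edgeR p under 0.05, 12 were lower, against 14% of all tested genes, and 3 higher. Over all tested genes, 1754 of the 3438 with such a p were lower. Acta2, smooth muscle alpha-actin, stood at 55.1 and 105 CPM in sham and at 21.7 and 51.1 CPM in TAC 1 and TAC 2 (log2 fold change −1.14 ± 0.40, edgeR adjusted p = 0.126), and its log2 fold change ran from −1.87 to −0.60 with 1 library left out. The pericyte genes Higd1b, Cox4i2 and Ndufa4l2, at 0.323 to 3.13 CPM, had log2 fold changes of −0.88, −0.56 and −0.95 (edgeR adjusted p = 0.285, 0.382 and 0.0865). With 1 library left out these ran from −1.67 to −0.35, −0.78 to −0.35 and −1.24 to −0.70. The list also held genes that heart muscle is known to express. Des, the intermediate filament gene of muscle, stood at 1490 and 1590 CPM in sham and 1980 and 2010 CPM in TAC (0.37 ± 0.08, edgeR adjusted p = 0.0529), positive in all 14 settings, and the laminin receptor subunit gene Itga7 was at 0.01 (0.939), negative in 5 of 14. The median of the list was −0.33 without TAC 1, −0.93 without TAC 2 and −0.74 with total-count scaling.

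The genes whose values over the 4 libraries were most like the median of the mural set were sought among all tested genes, by the Euclidean distance of centred log2 CPM. The nearest were Papln (distance 0.0425), Tie1 (0.0547), Kit (0.0712), Gcnt2 (0.0728) and Trim56 (0.0730). Tie1, a receptor tyrosine kinase of endothelium, stood at 49.5 and 42.1 CPM in sham and at 21.4 and 34.0 CPM in TAC. Within the set the distance ran from 0.0812 for Rgs5, 0.182 for Vtn and 0.213 for Pdgfrb to 1.05 for Tagln and 1.21 for Myh11. With 4 libraries such likeness is common, and 1374 other genes lay within a distance of 0.5.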

How the data were processed

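RNA was sequenced from isolated cardiomyocytes of 2 sham and 2 TAC mice. Per gene and library, the authors deposited 2 values, an estimated or expected count that was mostly whole and an FPKM. Per the labels, genome build mm10, Bowtie2 2.2.8 and StringTie 1.3.1 were named in the processing notes, without their roles. Which lengths and totals the FPKM rest on, and whether strand was used, is not stated. Titles gave the groups and replicate numbers.

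Expected counts were rounded and analysed in R 4.3.3 with edgeR 4.0.16: filterByExpr (minimum count 10), TMM factors (0.868 to 1.097), glmQLFit and glmQLFTest without a block on all 12499 genes passing, with Benjamini-Hochberg adjustment. All 10 members passed. SE is the log2 fold change divided by the square root of F. Replicates were compared by chi-square over genes (9.19 per degree of freedom between sham libraries, 31.34 between TAC libraries) and kept as separate samples. With 2 libraries per group the p-values rest on the spread pooled over genes, and measure the spread between these libraries (common biological coefficient of variation 10.5%). In fits without 1 library, the group left with 1 library adds nothing to that spread, so their calls and p-values rest on the other group. The fit was tested on simulated data. Alternatives used DESeq2 1.42.0 and limma 3.58.1. All 10 members are named, and of other lists the called genes and a few references; some uncalled list genes were chosen as examples after their values were seen. The members and lists were chosen with earlier results of these data known. Promoters came from RefSeq (GRCm38.p6) and positions from GENCODE vM21.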

Additional observations from a re-analysis of the deposited data

How the results depend on the processing

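Of 129 comparisons of single members with an alternative that gave an adjusted p (DESeq2 gave none for Cnn1), 99 stayed on their side of the threshold, 24 gained a call and 6, all of Abcc9 or Pdgfrb, lost one. The number of members called lower was 2 in the reported fit, 2 with RLE size factors, with total-count scaling and with totals that left out the mitochondrial genes, and 3 with DESeq2 (442 lower and 459 higher over all genes). It was 8 with no low-count filter, where the same genes were called as without TAC 2, and in limma on log2 FPKM 1 with a pseudocount of 1 and 0 with a pseudocount of 0.1 (8 at an unadjusted p under 0.05 in the lower direction, against 18.1% of all genes in that fit). Leaving out 1 library gave 0 to 8 members. No member was called higher in any setting.

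Over all tested genes, 304 lower and 322 higher genes were called. With no filter these were 969 and 707, in limma 190 and 79 with a pseudocount of 1 and 164 and 73 with 0.1. Leaving out 1 library gave 118 to 776 lower and 183 to 560 higher. Higher genes numbered 105 with total-count scaling and 188 with totals without mitochondrial genes, where the median of all genes moved to −0.20 and −0.11. Of the other mural genes, 0 were called either way in the reported fit, 1 lower with total-count scaling, 9 lower and 1 higher with no filter, 3 lower and 1 higher with DESeq2, and 0 to 12 lower without 1 library. Why these counts moved was not tested.

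Sham and TAC libraries share replicate numbers, and the methods of the study speak of pairs of sham and TAC mice, but no source used here says that a number marks a pair. Deviations from the group means correlated at −0.242 between sham 1 and TAC 1 over 12499 genes. With a replicate block 3 members were called lower (Rgs5 at adjusted p = 0.0219), with 2 other mural genes, beside 298 lower and 268 higher genes over all tested. A crossed block, chosen after seeing the data, gave 8 members, 10 lower and 1 higher other mural genes, and 1163 lower and 968 higher genes.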
